A study of Sus scrofa with 20 samples.

Results

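The comparison described here is between uteri of 5 sows inseminated with all sperm-bearing parts of the boar ejaculate (FR3) and uteri of 5 sows inseminated without its last, poor part (FR2). FR3 semen held the rich, intermediate and poor fractions, and FR2 semen the rich and intermediate fractions. The 10 libraries were those whose columns carry the FR3 and FR2 names, out of 20 libraries in 4 groups. All rows with a gene name were used, 30345 of 30369, and 16625 of these genes passed a filter on low counts and were tested. Messenger RNA of whole uterine tissue was sequenced from Large White by Landrace sows of Danbred genetics, labelled wild type, with a mean parity of 3.53 ± 1.12 (the labels do not name the kind of error) and 1 library per sow. The other groups were FR1, whose semen held the rich fraction alone, and CONTROL, sows that were not inseminated, each with 5 sows. Semen came from 3 Pietrain boars aged 32 ± 1 months, each of which gave 1 ejaculate of every kind, with the gel and the first, pre-sperm phase removed. Insemination was post-cervical, at estrus onset and every 24 h while the sow stood, 2.53 ± 0.74 times on average, and tissue was taken 6 days after estrus onset. The labels give neither the boar used for a sow nor the sperm number per dose, nor which sows held embryos, and their part in a difference between FR3 and FR2 was not tested. The sow behind each column is not known either, so libraries are named by group and column number.

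The boar delivers its ejaculate in successive jets. The rich fraction carries most of the sperm in fluid from the epididymis, and the later intermediate and poor fractions carry fewer sperm in more seminal plasma, mainly from the seminal vesicles, prostate and bulbourethral glands. Seminal plasma proteins, cytokines and hormones act on the lining of the sow's uterus, where they set off a transient leukocyte influx and alter the expression of immune, growth and prostaglandin genes. About the time of sampling, progesterone from the young corpora lutea has replaced estrogen as the dominant steroid, and the glands and surface epithelium are changing from proliferation to secretion.

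Library totals were 32.98 to 62.9 M counts in FR3 and 39.3 to 47.3 M in FR2. A count of 17006 to 20045 genes in FR3 libraries and 18195 to 21574 genes in FR2 libraries was above 0. Markers of uterine tissue were plentiful: the epithelial keratin KRT8 was at 444 to 2292 CPM in FR3 and at 516 to 1196 CPM in FR2, where CPM are counts relative to the size of the library (per 1 M counts) after scaling by TMM, a correction for differences in library composition. The smooth muscle actin ACTA2 was at 873 to 6323 CPM in FR3 and at 1151 to 3083 CPM in FR2. A group of 3 libraries stood apart in a principal component analysis: FR3_4 and FR2_3 lay on the same side of the first component (scores of -102 and -84.8, 35.4% of the variance), and FR3_3 lay alone on the second (-110, 19.3%). The other end of the first component was held by FR3_1, FR3_2 and FR3_3 (76.1, 62.8 and 45.3). FR3_4 held the most smooth muscle RNA and, with FR2_3, the least epithelial RNA, and FR3_3 was rich in ribosomal protein and globin RNA. FR3 libraries were on average less alike than FR2 libraries, with a mean pairwise Spearman correlation of 0.946 against 0.969, a difference of -0.023 that an exact two-sided permutation test did not set apart (p = 0.183). Without FR2_3 the difference was -0.034 (exact permutation p = 0.0476), and without FR3_4 it was -0.0033. Results below are therefore also given without FR3_4 and FR2_3 where that changes them.

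One gene of 16625 (0.00602%) passed the test, an edgeR quasi-likelihood test with adjusted p below 0.05, and it was lower in FR3. The gene, GPCPD1, encodes a phosphodiesterase that splits glycerophosphocholine, a compound abundant in epididymal fluid and semen, into choline and glycerol phosphate. GPCPD1 was at 27.6, 35.5, 41.7, 41.9 and 40.8 CPM in FR3_1 to FR3_5, against 95.4, 80.9, 135, 108 and 93.2 CPM in FR2_1 to FR2_5. Every FR3 library lay below every FR2 library, with a wide gap between the groups. The means were 37.5 ± 6.12 CPM in FR3 and 102 ± 20.3 CPM in FR2 (SD, n = 5 each), a difference of -1.45 ± 0.17 on the log2 scale (SE; adjusted p = 0.0483 by edgeR). In the groups outside the fit GPCPD1 averaged 57.7 ± 17.8 CPM in FR1 and 43.4 ± 10.1 CPM in CONTROL (SD, n = 5 each), so FR2 had the highest mean of the 4 groups and FR3 the lowest. The fold change stayed between -1.65 and -1.33 under every alternative setting tried, but the call sits at the threshold. It was lost with RLE factors (adjusted p = 0.0605), with upper-quartile factors (0.161), with a stricter filter on low counts (0.0515), with FR1 added to the fit (0.0845) and when any single library other than FR3_4 was left out (0.0630 to 0.236), each by edgeR. It was kept by DESeq2 (adjusted p = 3.79e-10), by limma-voom (0.0493) and without both FR3_4 and FR2_3 (edgeR adjusted p = 0.0419).

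**Figure D1:**
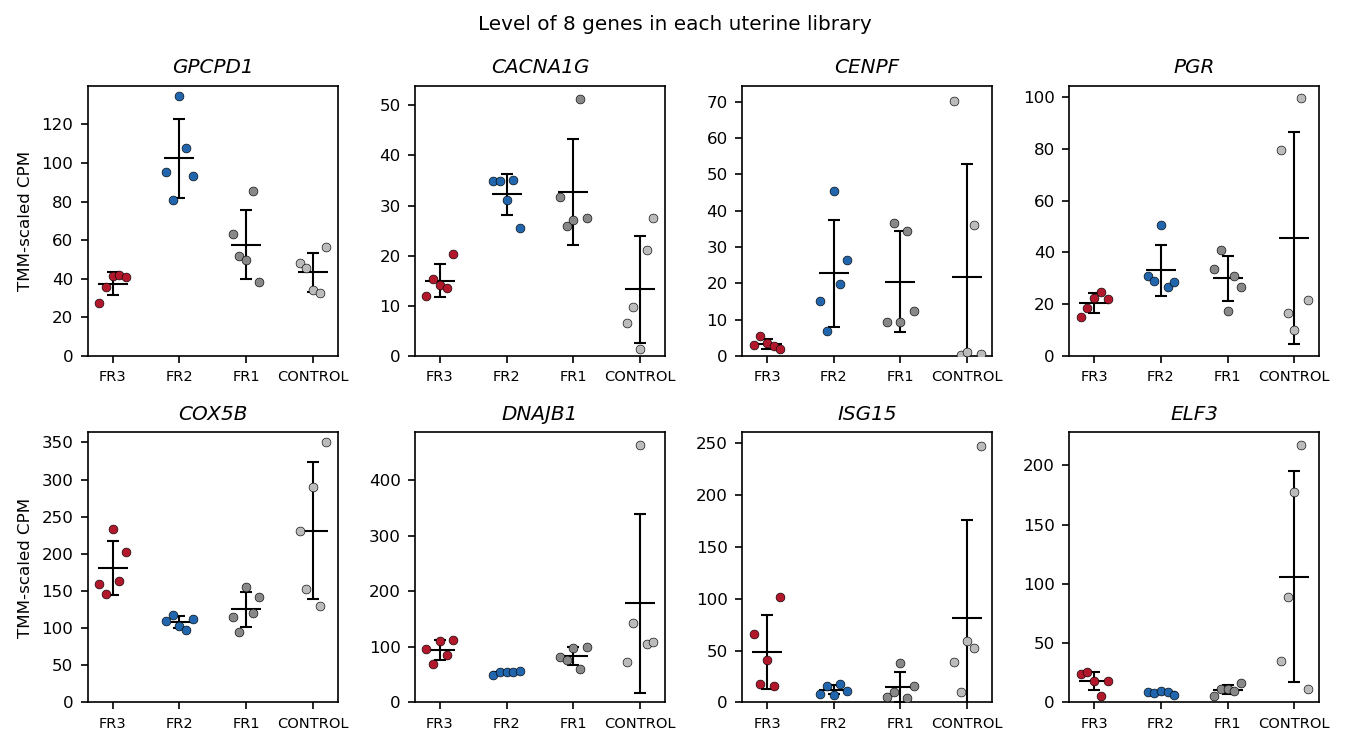
Levels of 8 genes in TMM-scaled CPM (vertical axes, linear, from 0) in the 5 libraries of FR3, FR2, FR1 and CONTROL (horizontal axes); points are libraries, the long bar is the mean and the whiskers are 1 SD. On this scale GPCPD1, CACNA1G, CENPF and PGR are lower in every FR3 library than in any FR2 library, COX5B and DNAJB1 are higher, and for ISG15 and ELF3 the groups overlap.

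Beyond that call the test did not separate single genes, and the next smallest adjusted p was 0.171. At an unadjusted edgeR p below 0.05 there were 976 genes higher in FR3 (5.87% of those tested) and 1119 lower (6.73%), and the median log2 fold change over all genes was 0.02. Groups that did not overlap were counted as a second description. All 5 FR3 libraries lay above all 5 FR2 libraries in 253 genes (1.52%) and below them in 323 genes (1.94%). These splits depended on the scaling of the libraries: they were 314 and 281 genes with RLE factors, 179 and 365 with upper-quartile factors, and 51 and 876 with library totals alone, a scale on which the median of all genes was at -0.18. At an unadjusted p below 0.05, RLE factors gave 1147 genes higher and 1011 lower. With library totals alone 2416 of the 2668 genes at an unadjusted p below 0.05 were lower. TMM factors were 0.837 to 1.01 in FR3 and 1.04 to 1.13 in FR2, so FR3 levels are lower on the scale of totals alone. The number of calls also depended on the tool, with 426 genes by DESeq2 (199 higher, 1.20%, and 227 lower, 1.37%) and 951 by limma-voom with weights for library quality (385 higher and 566 lower). Without FR3_4 and FR2_3, 1862 of 16662 genes were higher at an unadjusted p below 0.05 (11.2%) and 1451 lower (8.71%). All 4 FR3 libraries then lay above all 4 FR2 libraries in 1149 of the 16625 genes tested with all libraries (6.9%). Counts of list members in that setting are to be read against these larger shares, and counts with all libraries against the shares given before them.

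**Figure D2:**
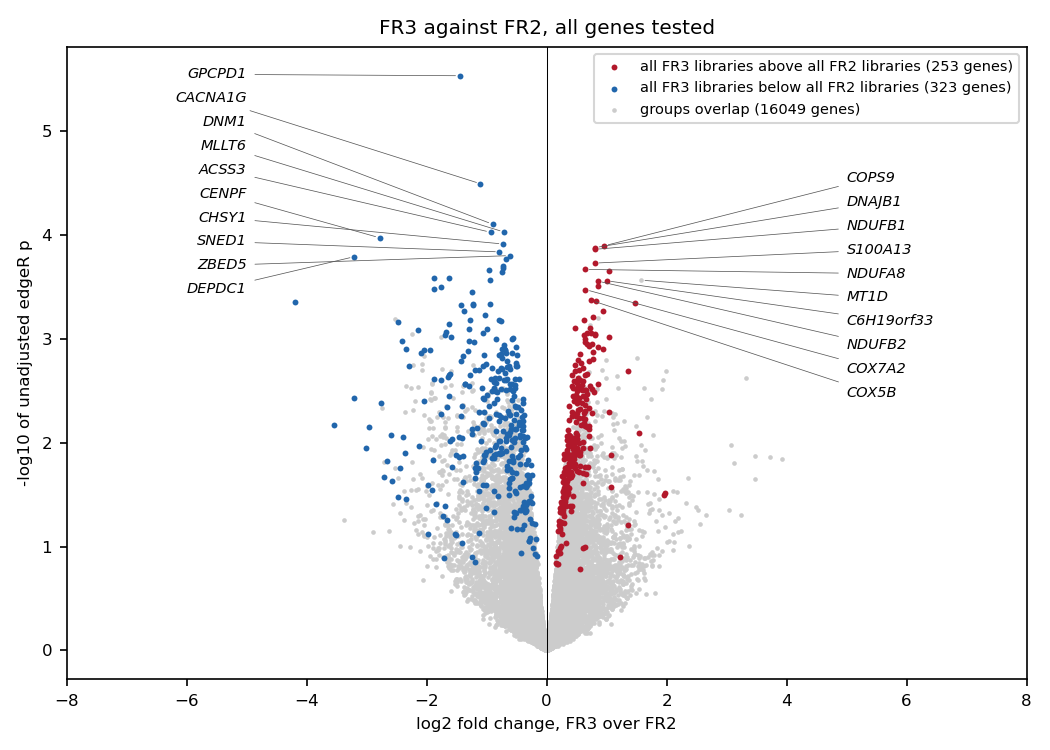
Log2 fold change of FR3 over FR2 (horizontal axis) against -log10 of the unadjusted edgeR p (vertical axis) for the 16625 genes tested. Red and blue points are the 253 and 323 genes whose groups do not overlap, grey points all others; the named genes are the 10 with the smallest p in each direction, of which GPCPD1 alone was called.

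The other 9 of the 10 genes with the smallest p that were lower in FR3 were not called. CACNA1G, the pore subunit of a T-type calcium channel, was at 11.9, 15.3, 14.1, 13.6 and 20.4 CPM in FR3, against 34.9, 34.8, 31.1, 35.1 and 25.6 CPM in FR2. The groups did not overlap, at a log2 fold change of -1.10 ± 0.17 (SE; adjusted p = 0.171 by edgeR, not called). FR1 averaged 32.7 ± 10.6 CPM, close to FR2, and CONTROL 13.3 ± 10.8 CPM, close to FR3 (SD, n = 5 each). DNM1, a dynamin that pinches vesicles off the plasma membrane, was at 13.9 to 19.2 CPM in FR3 and at 25.7 to 38.1 CPM in FR2 (log2 -0.90 ± 0.15). ACSS3, a mitochondrial synthetase that activates short-chain fatty acids, was at 12.7 to 16.5 CPM in FR3 and at 21.9 to 33.6 CPM in FR2 (log2 -0.94 ± 0.16). CHSY1, which polymerises chondroitin sulfate chains, was at 30.9 to 37.0 CPM in FR3 and at 42.3 to 64.3 CPM in FR2 (log2 -0.73 ± 0.13). SNED1, a secreted matrix glycoprotein, was at 19.1 to 27.3 CPM in FR3 and at 30.3 to 40.9 CPM in FR2 (log2 -0.79 ± 0.14). The nuclear proteins MLLT6 and ZBED5 were at log2 -0.71 ± 0.12 and -0.62 ± 0.11. None of these was called (edgeR adjusted p = 0.171 each), and in all of them the 5 FR3 libraries lay below the 5 FR2 libraries.

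The remaining lower genes of that ranking, CENPF and DEPDC1, belong to dividing cells. CENPF, a kinetochore protein made before mitosis, was at 2.92, 5.61, 3.43, 2.72 and 1.77 CPM in FR3, against 15.1, 6.77, 45.5, 19.7 and 26.5 CPM in FR2. All FR3 values were below all FR2 values, and FR2 libraries differed among themselves far more than FR3 libraries did. The log2 fold change was -2.78 ± 0.48 (SE, edgeR adjusted p = 0.171, not called). DEPDC1, a mitotic protein, was at 0.0898 to 0.650 CPM in FR3 and at 1.06 to 5.42 CPM in FR2 (log2 -3.21 ± 0.58).

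The whole cell cycle and mitosis list showed the same direction. Of 30 members tested, 0 passed the edgeR test, and 23 were lower in FR3 at an unadjusted p below 0.05 (6.73% of all genes) and 0 higher. A negative fold change was found in 29, and the exception was TYMS, thymidylate synthase, at 0.00. The median log2 fold change was -1.55, beside 0.02 over all genes tested. Named members were BUB1B, a spindle checkpoint kinase, at 0.741 to 3.53 CPM in FR3 and 3.36 to 19.9 CPM in FR2 (log2 -2.22 ± 0.55), and TPX2, a spindle assembly factor, at 6.06 to 15.0 CPM in FR3 and 11.3 to 54.5 CPM in FR2 (log2 -1.59 ± 0.40). In both the groups overlapped, through FR3_3 and FR2_2. The groups did not overlap in 2 members, CENPF and the mitotic kinase AURKB, which was named after its values were seen. Summed over the list, FR3 libraries held 225, 267, 351, 243 and 169 CPM, against 439, 272, 1041, 471 and 617 CPM in FR2. FR2_3 had by far the most and FR2_2 lay within the FR3 range. Without FR2_3 the median was -1.11 with 16 members lower at an unadjusted p below 0.05 (4.80% of all genes). Without both FR2_3 and FR3_4 the median was -1.18 with 18 members lower (8.71% of all genes). DESeq2 called 15 of the 30, all lower (1.37% of all genes). FR1 libraries averaged 20.5 ± 13.8 CPM of CENPF and CONTROL libraries 21.6 ± 31.2 CPM (SD, n = 5 each). The CONTROL mean rested on 2 libraries: CONTROL_2, CONTROL_3 and CONTROL_5 were at 0.382, 1.05 and 0.487 CPM, below every FR3 library.

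**Figure D3:**
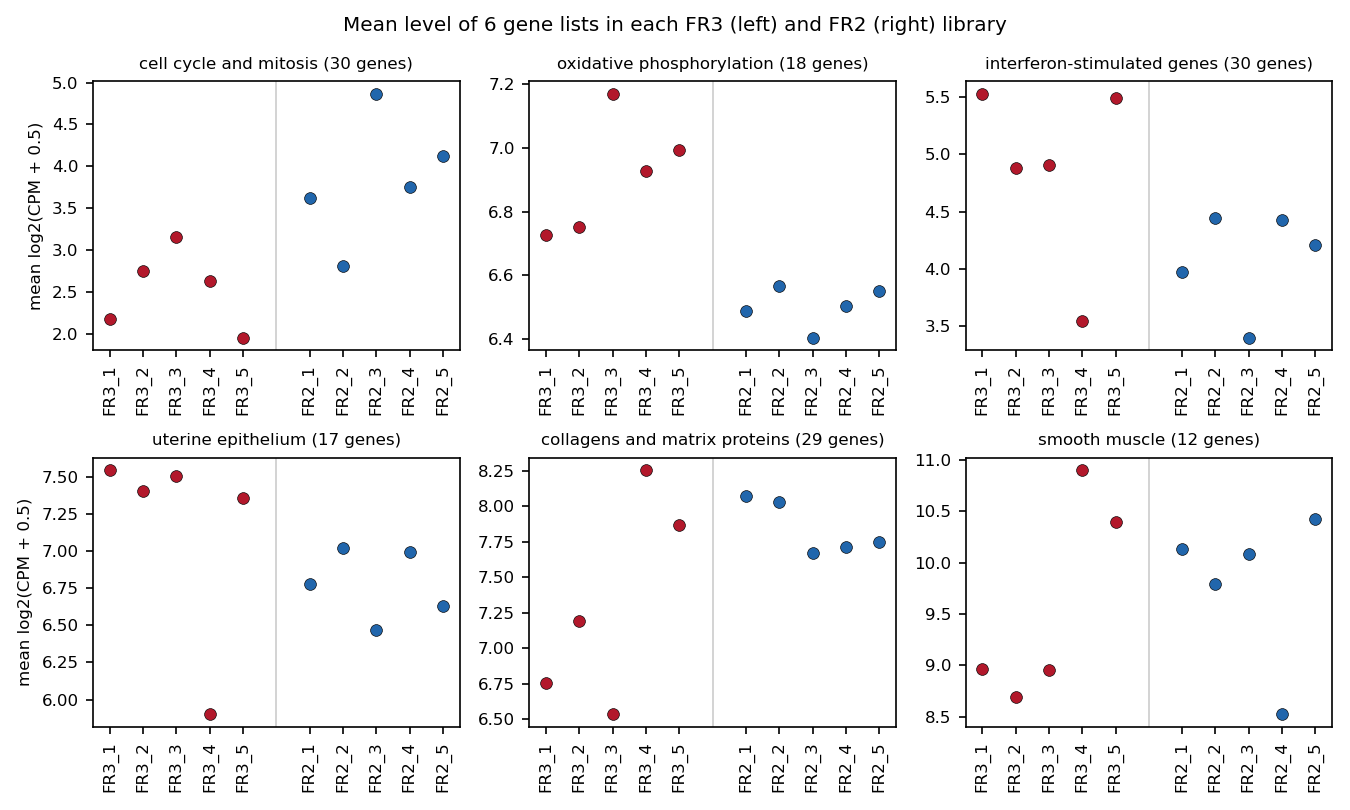
Mean log2(CPM + 0.5) over the members of 6 gene lists (vertical axes, each with its own range) in every FR3 library (red, left) and FR2 library (blue, right). On this scale oxidative phosphorylation separates the groups, as do endoplasmic reticulum chaperones, which are not drawn. The cell cycle list is lower in FR3 apart from overlap between FR3_3 and FR2_2. FR3_4 falls outside the other FR3 libraries for interferon-stimulated genes and epithelium.

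Of the 10 genes higher in FR3 with the smallest p, 5 encode subunits of respiratory chain complexes. COX5B, a nuclear-encoded subunit of cytochrome c oxidase, was at 159, 145, 234, 163 and 203 CPM in FR3, against 109, 118, 103, 97.1 and 112 CPM in FR2. The groups did not overlap, with FR3_3 the highest, and the log2 fold change was 0.75 ± 0.15 (SE, edgeR adjusted p = 0.196, not called). COX7A2, of the same enzyme, was at 91.5 to 124 CPM in FR3 and 58.6 to 78.6 CPM in FR2 (log2 0.65 ± 0.13). NDUFB1, NDUFA8 and NDUFB2, accessory subunits of respiratory complex I, were at log2 0.81 ± 0.14, 0.64 ± 0.12 and 0.86 ± 0.16, and none of their FR3 libraries overlapped FR2. COPS9, a small subunit of the COP9 signalosome that regulates ubiquitin ligases, was at 95.4 to 148 CPM in FR3 and at 46.9 to 72.5 CPM in FR2 (log2 0.96 ± 0.17). DNAJB1, a heat shock co-chaperone, was at 96.0, 69.3, 110.1, 84.6 and 113 CPM in FR3, against 49.8, 55.4, 54.3, 54.9 and 56.0 CPM in FR2. FR2 values of DNAJB1 lay within a narrow band that no FR3 library reached (log2 0.81 ± 0.14), whereas FR1 averaged 82.8 ± 16.2 CPM and CONTROL 178 ± 161 CPM (SD, n = 5 each). S100A13, a calcium-binding protein, and C6H19orf33 were at log2 0.80 ± 0.15 and 1.00 ± 0.19, again without overlap. MT1D, named as a metallothionein of the family that binds zinc and copper, was at 106, 111, 62.5, 157 and 195 CPM in FR3, against 40.6, 63.6, 45.3, 32.1 and 31.05 CPM in FR2. FR3_3 and FR2_2 overlapped there (log2 1.57 ± 0.30). None of these genes was called (edgeR adjusted p = 0.171 to 0.196).

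Of 23 members of the oxidative phosphorylation list 18 were found and tested, and all 18 had a positive fold change. None was called, 13 were higher in FR3 at an unadjusted p below 0.05 (5.87% of all genes), and in 9 the groups did not overlap (1.52%). The median was 0.38. With upper-quartile factors 4 members did not overlap, beside 179 of all 16625 genes. NDUFA2, an accessory subunit of complex I, was at 94.0, 119.8, 139, 79.5 and 98.1 CPM in FR3, against 62.6, 68.1, 43.4, 67.6 and 63.3 CPM in FR2 (log2 0.80 ± 0.18, edgeR adjusted p = 0.225). NDUFB7, of the same complex, was at 73.1 to 122 CPM in FR3 and 55.6 to 68.3 CPM in FR2 (log2 0.58 ± 0.15). The sum over the list was 2899 to 3919 CPM in FR3 and 2186 to 2504 CPM in FR2, without overlap. Subunits encoded by mitochondrial DNA made up 1.71% to 2.81% of counts in FR3 libraries and 2.19% to 2.88% in FR2 libraries, which overlap. With library totals alone all 18 folds stayed positive, the median was 0.19 and 3 members did not overlap (0.307% of all genes). Without FR3_4 and FR2_3 the median was 0.39 and 13 members did not overlap (6.9% of all genes). DESeq2 called 9 of the 18, all higher (1.20% of all genes).

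Cytosolic ribosomal proteins had a similar median, 0.41, with all 30 folds positive, but 2 were at an unadjusted p below 0.05 and none was without overlap. Their sum was 117700 CPM in FR3_3 and 45579 to 75642 CPM in the other FR3 libraries, against 46250 to 58586 CPM in FR2. Without FR3_3 the median of this list was 0.17 and 4 folds were negative, whereas that of oxidative phosphorylation was 0.31. Chaperones of the endoplasmic reticulum, which fold secreted proteins, were at a median of 0.17, and at -0.01 with library totals alone. With TMM scaling their mean log2 level did not overlap, at 6.88 to 7.03 in FR3 and 6.75 to 6.85 in FR2. Their summed level overlapped, at 4131 to 4891 CPM in FR3 and 3849 to 4299 CPM in FR2. Of 20 chaperones tested, 1 was higher at an unadjusted p below 0.05 (5.87% of all genes) and 0 were without overlap.

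Interferon-stimulated genes, which answer type I and II interferons and hold many antiviral proteins, were higher in 4 of 5 FR3 libraries. Of 30 members tested, 0 were called, 28 had a positive fold change, 17 were higher at an unadjusted p below 0.05, and in 0 were the groups without overlap; the median was 0.85. HERC5, a ligase that attaches ISG15 to proteins, was at 82.0, 55.4, 36.5, 20.4 and 98.6 CPM in FR3, against 21.3, 24.0, 15.0, 20.4 and 22.8 CPM in FR2. Only FR3_4 lay within the FR2 range (log2 1.50 ± 0.36, edgeR adjusted p = 0.237). ISG15, a ubiquitin-like modifier, was at 66.4, 18.0, 41.0, 15.9 and 101 CPM in FR3, against 8.55, 16.2, 7.26, 17.4 and 11.5 CPM in FR2 (log2 1.99 ± 0.50). OASL, an antiviral protein related to the oligoadenylate synthetases, was at 4.06, 1.79, 2.13, 0.994 and 17.1 CPM in FR3, against 1.03, 0.308, 0.246, 0.168 and 0.811 CPM in FR2 (log2 3.33 ± 0.85), with FR3_5 the highest. The list summed to 3370, 2306, 2323, 753 and 2780 CPM in FR3, against 1037, 1399, 659.5 and 1431 CPM in FR2_1 to FR2_4 and 1120.2 CPM in FR2_5. FR3_4 and FR2_3 had the lowest sums of their groups and also the lowest epithelial sums. Without both libraries 23 members were higher at an unadjusted p below 0.05 (11.2% of all genes), 17 did not overlap (6.9%) and the median was 0.89. Without FR2_3 alone 13 were higher at that p (3.64% of all genes), at a median of 0.65. DESeq2 with all libraries called 5 of the 30, all higher (1.20% of all genes).

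Antigen presentation and the immunoproteasome, which supply peptides to MHC molecules, were at a median of 0.43, with 26 of 28 folds positive, 10 higher at an unadjusted p below 0.05 and 0 called. Without FR3_3 the median was 0.28 with 6 negative folds, and with library totals alone it was 0.22 with 7. DESeq2 called 2 of the 28, all higher (1.20% of all genes). PSMB10, a catalytic subunit of the immunoproteasome, was at 20.8, 19.7, 34.4, 25.1 and 30.1 CPM in FR3, against 11.8, 17.5, 15.0, 15.1 and 16.7 CPM in FR2, and was the 1 member without overlap (log2 0.77 ± 0.18). PSMB9, another such subunit, was at 8.59 to 14.2 CPM in FR3 and 4.32 to 9.00 CPM in FR2 (log2 0.85 ± 0.23). B2M, the light chain of MHC class I, was at 338 to 636 CPM in FR3 and 227 to 374 CPM in FR2 (log2 0.61 ± 0.20). Reads of the SLA genes, the pig MHC, may be shared among near-identical members by the counting, so their single values are uncertain.

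Epithelial markers also had mostly positive fold changes. Of 17 tested, 0 were called, 15 had a positive fold change, 3 were higher at an unadjusted p below 0.05 and 0 were without overlap; the median was 0.60. ELF3, an epithelial transcription factor, was at 24.1, 25.3, 17.9, 5.80 and 17.7 CPM in FR3, against 8.72, 7.62, 9.95, 8.94 and 6.67 CPM in FR2. FR3_4 was below all FR2 libraries and the other 4 were above them (log2 1.11 ± 0.33, edgeR adjusted p = 0.260). The keratin KRT18, found in single-layered epithelium, was at 109 to 234 CPM in FR3 and 98.4 to 151 CPM in FR2 (log2 0.56 ± 0.21). The epithelial sum was 7829, 7055, 7404, 2303 and 5307 CPM in FR3, against 4075, 4656, 2905, 4573 and 3645 CPM in FR2, so FR3_4 had the lowest sum of all 10. Whether a higher epithelial share accounts for other genes higher in FR3 was not tested, and in whole tissue more cells of a type and more RNA per cell cannot be told apart. Without FR3_4 and FR2_3, 12 epithelial markers were higher at an unadjusted p below 0.05 (11.2% of all genes), 9 did not overlap (6.9%) and ELF3 was called. That setting leaves out the library with the lowest epithelial sum of each group. With library totals alone the median of the list was 0.39.

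Stromal and matrix genes ran the other way. Of 29 collagens and matrix proteins tested, 0 were called, 27 had a negative fold change and 2 were lower at an unadjusted p below 0.05; the median was -0.40. FN1, the matrix glycoprotein fibronectin, was at 96.1, 142, 88.3, 205 and 209 CPM in FR3, against 247, 306, 287, 181 and 198 CPM in FR2 (log2 -0.72 ± 0.27). COL18A1, a basement membrane collagen, was at 300.1 to 488 CPM in FR3 and 359 to 668 CPM in FR2 (log2 -0.56 ± 0.22). In both genes the groups overlapped. PDGFRB, a receptor of pericytes and fibroblasts, was at 52.1, 94.1, 42.1, 100.2 and 96.8 CPM in FR3, against 145, 169.6, 104, 122 and 126 CPM in FR2, without overlap (log2 -0.79 ± 0.25, edgeR adjusted p = 0.287). MMP11, a stromal metalloproteinase, was at 45.9 to 58.8 CPM in FR3 and 60.1 to 80.5 CPM in FR2, also without overlap (log2 -0.51 ± 0.12). With RLE or upper-quartile factors the groups overlapped in MMP11. Summed fibroblast markers ran from 4692 to 17387 CPM in FR3 and from 10383 to 13934 CPM in FR2, smooth muscle markers from 6498 to 34132 CPM in FR3 and from 5815 to 22671 CPM in FR2, and blood endothelial markers from 117 to 535 CPM in FR3 and from 247 to 298 CPM in FR2. The highest of the FR3 sums was FR3_4 in all 3 lists. Without FR3_4 and FR2_3 all 29 matrix genes had a negative fold change, 18 were lower at an unadjusted p below 0.05 (8.71% of all genes), and the median was -0.69. Without FR3_3 the median was -0.22, 5 folds were positive and 0 genes were lower at that p (6.37% of all genes). The part of tissue composition in this was not tested.

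**Figure D4:**
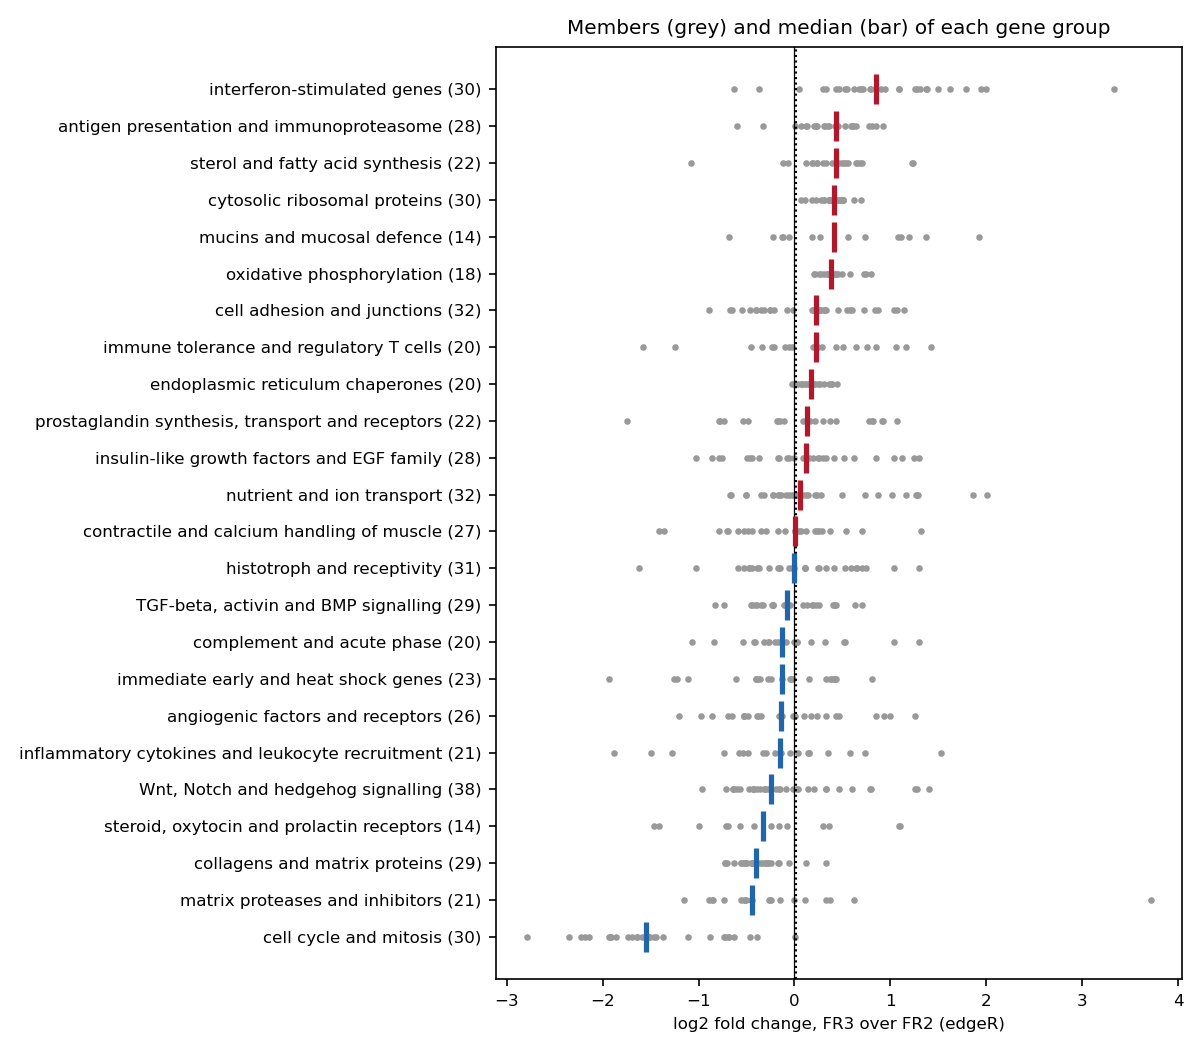
Log2 fold change of FR3 over FR2 (horizontal axis) for the tested members of 24 gene groups (rows, number of members in parentheses), ordered by their median; grey points are members, coloured bars medians, and the dotted line the median of all 16625 genes. Medians run from 0.85 for interferon-stimulated genes to -1.55 for the cell cycle list.

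Steroid and peptide hormone receptors held 14 tested members with 0 called and a median of -0.33, which was -0.52 without FR3_4 and -0.51 with library totals alone. PGR, the progesterone receptor, was at 15.1, 18.4, 22.4, 24.6 and 22.1 CPM in FR3, against 30.8, 29.0, 50.6, 26.8 and 28.7 CPM in FR2. The groups did not overlap, with FR2_3 far above the rest (log2 -0.69 ± 0.20, edgeR adjusted p = 0.260). With upper-quartile factors they overlapped in PGR. NR3C2, the mineralocorticoid receptor, was at 13.6, 9.73, 7.05, 5.11 and 7.80 CPM in FR3, against 4.30, 3.93, 2.58, 3.24 and 6.35 CPM in FR2 (log2 1.09 ± 0.31). The estrogen receptor ESR1 was at 181 to 356 CPM in FR3 and 226 to 431 CPM in FR2 (log2 -0.42 ± 0.23). ESR2, the second estrogen receptor, was under 1 CPM in all FR3 libraries and in 4 of 5 FR2 libraries. OXTR, through which oxytocin contracts the myometrium, was at 0.369 to 6.55 CPM in FR3 and 1.13 to 17.4 CPM in FR2 (log2 -1.41 ± 0.72, edgeR adjusted p = 0.439).

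Sterol and fatty acid synthesis had 19 of 22 positive folds and a median of 0.43, with FR3_4 again apart from the other FR3 libraries. FDPS, which makes farnesyl diphosphate, was at 2124, 1699, 1688, 286 and 1864 CPM in FR3, against 689, 699, 227, 1049 and 584 CPM in FR2 (log2 1.24 ± 0.50, edgeR adjusted p = 0.349). Without FR3_4 and FR2_3, 9 members were higher at an unadjusted p below 0.05 (11.2% of all genes). With library totals alone the median was 0.21.

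Immediate early and heat shock genes had no common direction, with 8 positive and 15 negative folds. EGR2, a transcription factor induced by growth signals, was at 2.42, 2.94, 3.36, 2.92 and 2.73 CPM in FR3, against 5.16, 6.60, 8.59, 4.27 and 8.98 CPM in FR2, without overlap (log2 -1.22 ± 0.25, edgeR adjusted p = 0.196). FOSB was at 3.09 to 8.86 CPM in FR3 and 4.21 to 45.5 CPM in FR2 (log2 -1.93 ± 0.64). Of the inflammatory mediators, 21 of 31 were tested, with 1 higher and 2 lower at an unadjusted p below 0.05. The neutrophil chemokine CXCL2 was at 0.282 to 0.545 CPM in FR3 and 0.516 to 2.92 CPM in FR2 (log2 -1.88 ± 0.52), and the endothelial selectin SELE at 0.269 to 0.570 CPM in FR3 and 0.479 to 1.74 CPM in FR2 (log2 -1.50 ± 0.46). CXCL16, a chemokine made by epithelium and macrophages, was at 92.1, 85.1, 123, 18.4 and 184 CPM in FR3, against 36.2, 68.7, 9.38, 30.2 and 29.0 CPM in FR2 (log2 1.53 ± 0.57). CXCL8 did not pass the filter on low counts. LIF, a cytokine of implantation, and PTGS2, the inducible prostaglandin synthase, overlapped between the groups at log2 -1.62 ± 0.89 and 0.92 ± 1.17, with PTGS2 at 0.433 to 35.5 CPM in FR3 and 0 to 27.2 CPM in FR2.

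Leukocyte markers overlapped between the groups in their summed levels. Neutrophil markers summed to 6.71 to 21.3 CPM in FR3 and 6.74 to 10.9 CPM in FR2, and S100A8, S100A12, ELANE and MPO did not pass the filter. MMP8, a neutrophil collagenase, was at 14.5 CPM in FR3_5 and at 0.256 to 0.449 CPM in the other FR3 libraries, against 0.0569 to 0.355 CPM in FR2. Macrophage markers summed to 170.4 to 341 CPM in FR3 and 118.5 to 184 CPM in FR2, with 9 of 11 positive folds and a median of 0.50. C1QB, a complement component made by macrophages, was at 53.9, 65.2, 110.0, 51.0 and 70.1 CPM in FR3, against 45.4, 46.5, 45.3, 30.4 and 52.6 CPM in FR2 (log2 0.67 ± 0.22, edgeR adjusted p = 0.296). Mast cell and eosinophil markers summed to 65.6 to 1474 CPM in FR3 and 62.3 to 858 CPM in FR2, most of it HDC, the histamine-forming enzyme, and FR3_4 and FR2_3 were the lowest of their groups. T and NK cell markers summed to 40.5 to 78.7 CPM in FR3 and 44.4 to 69.6 CPM in FR2, and FOXP3, the factor of regulatory T cells, overlapped at log2 -0.21 ± 0.41. The list of immune tolerance and regulatory T cell genes had 11 positive and 9 negative folds, a median of 0.22 and 0 members without overlap. Its sum did not overlap, at 2676 to 3274 CPM in FR3 and 1491 to 2284 CPM in FR2. LGALS9, a galectin that dampens T cells, was at 31.3 CPM in FR3_4 and 116 to 195 CPM in the other FR3 libraries, against 35.2 to 77.0 CPM in FR2 (log2 1.16 ± 0.39). Globin was high in FR3_3, with HBB at 1851 CPM there and 68.7 to 339 CPM in the other FR3 libraries, against 9.76 to 169 CPM in FR2. Of 10 sperm and testis markers 5 were tested, with 1 higher and 2 lower at an unadjusted p below 0.05, and PRM1, TNP1, ODF1, ACR and SPACA1 did not pass the filter. CRISP2, a cysteine-rich secretory protein of sperm, was at 0.112, 0.404, 0.911, 0.272 and 5.94 CPM in FR3, against 0.215, 0.0710, 0, 0.168 and 0.218 CPM in FR2 (log2 3.48 ± 1.19, edgeR adjusted p = 0.301), with FR3_5 far above the rest. AKAP4 and TSSK6, of the sperm tail and of spermatids, were at log2 -1.75 ± 0.63 and -1.13 ± 0.46. Of 8 embryo markers 3 were tested, all with negative folds of -0.52 to -0.36 on the log2 scale, and NANOG, POU5F1, CDX2, LIN28A and DPPA5 did not pass the filter.

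Without FR3_4 and FR2_3, 7 of 16662 genes (0.0420%) were called by edgeR, 5 higher and 2 lower. These 2 libraries were left out for their place in the principal component analysis of the same data. They lie at one end of its first component, and FR3_1 and FR3_2, at the other end, were kept. FR3_4 was the lowest FR3 library for all 5 genes called higher, so the adjusted p values given here are descriptive. IFI6, an interferon-stimulated mitochondrial protein, was at 955, 856, 983 and 792 CPM in the 4 remaining FR3 libraries, against 249, 302, 283 and 267 CPM in the 4 remaining FR2 libraries (log2 1.72 ± 0.15, edgeR adjusted p = 0.0104). FR3_4 and FR2_3 themselves were at 161 and 116 CPM, so IFI6 in FR3_4 was below all 4 of those FR2 values. ISG12(A), of the same interferon-induced family, was at log2 1.55 ± 0.19, AIFM2, a ferroptosis suppressor, at 1.19 ± 0.15, AZGP1, a secreted glycoprotein also known from seminal plasma, at 1.15 ± 0.15 and ELF3 at 1.43 ± 0.19. Lower were GPCPD1, at -1.36 ± 0.16, and FAM229A, at -2.05 ± 0.26 (edgeR adjusted p = 0.0419 to 0.0452 for these 6). With all 10 libraries these genes other than GPCPD1 had edgeR adjusted p of 0.179 to 0.332. IFI6, ISG12(A), AIFM2, FAM229A and AZGP1 were named after their values were seen.

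Adding the poor fraction was also set against adding the intermediate fraction, by testing in 15 libraries whether FR3 minus FR2 differed from FR2 minus FR1. Of 17354 genes 0 (0%) were called by edgeR, 920 had an unadjusted p below 0.05, and DESeq2 called 7. GPCPD1 had the smallest p: the difference between the steps was -2.25 ± 0.34 on the log2 scale (edgeR adjusted p = 0.151), with FR2 minus FR1 at 0.81 ± 0.21. It was called with all 20 libraries in the fit (edgeR adjusted p = 0.0496) and without FR1_4 (0.0135). DNAJB1 followed at 1.45 ± 0.26 (edgeR adjusted p = 0.509), and ACSS3 and CHSY1 were at -1.32 ± 0.26 and -1.11 ± 0.23. The steps share the FR2 libraries, so a gene that is high or low in FR2 alone gives a large difference between them.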

How the data were processed

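Per the labels' protocols, poly-T beads were used to capture messenger RNA, and paired reads came from a NovaSeq instrument. The authors deposited estimated counts (expected counts) per gene, and CASAVA, STAR 2.7.9a and Salmon 1.10.1 are named in the submitters' processing notes. Genome build, annotation and strand setting are not given in the sources used here, so overlapping antisense genes cannot be told apart, and near-identical genes are uncertain. Of the deposited values 87.2% were whole numbers, and all were rounded before testing. Rows naming no gene (24) held 0.0037% to 0.0107% of counts and were left out.

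The 10 libraries of FR3 and FR2 entered one edgeR fit (version 4.0.16, R 4.3.3): TMM factors, filterByExpr, two-sided quasi-likelihood test, 8 residual degrees of freedom, Benjamini-Hochberg adjustment over 16625 genes, called below 0.05. Standard errors were obtained by dividing each log2 fold change by the root of its F statistic. P-values measure the spread between sows. The fit could not allow for sows that received semen of the same boar, because the boar used for a sow is not given. All samples carry 1 batch label. Chi-square per gene was at least 45.7 for each of the 45 pairs of libraries, and none was counted as a repeat.

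Genes named are the 10 per direction with the smallest p (called or not), up to 3 members per list by p, and a fixed panel; a few genes that this rule picks are not reported here. The comparison, the 42 lists (790 members, 701 tested) and the alternatives were chosen with earlier results of these data known. Alternatives were other factors and filters, DESeq2 1.42.0, limma-voom 3.58.1, other thresholds and left-out libraries. Counts were also simulated for FR3 against FR2 (16212 genes), each gene drawn on its own with no shift shared by a library. The share recovered was 20.9% at a simulated fold of 2, 65.7% at 4 and 87.9% at 8, and 5 calls were false. For the test between steps (16944 genes) the shares were 0%, 47.8% and 71.2%, and 3 calls were false.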

Additional observations from a re-analysis of the deposited data

Results flagged for a closer look

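In 268 sets of 5 libraries the gap from the highest or lowest value to the next was divided by the range of all 5. Values were taken as log2(CPM + 0.5). A ratio above 0.71 was found 20 times, where chance alone gives about 1 in 20 of the 268 sets. FR3_4 was far below the other FR3 libraries in the epithelial factor ELF3 (5.80 CPM), in the sterol enzymes FDPS (286 CPM) and FDFT1 (96.7 CPM), in LGALS9 (31.3 CPM) and in the sum of interferon-stimulated genes (753 CPM). It was far above them in MLLT6 (66.2 CPM against 50.6 to 54.3 CPM in the others). FR3_5 was far above the other FR3 libraries in MMP8 (14.5 CPM) and in FST, the activin-binding protein follistatin (13.3 CPM against 4.23 to 5.32 CPM in the others). FR3_1 was far above them in ESR2 (0.718 CPM), and FR3_3 far below them in OXTR (0.369 CPM) and in the sum of Wnt, Notch and hedgehog genes (1325 CPM against 1709 to 1877 CPM in the others).

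FR2_3 was far below the other FR2 libraries in C6H19orf33 (27.5 CPM), NDUFA2 (43.4 CPM), B2M (227 CPM), the acid phosphatase ACP5 (5.33 CPM against 14.9 to 21.8 CPM) and the sum of mast cell and eosinophil markers (62.3 CPM against 420 to 858 CPM). Most of that sum was HDC, the histamine-forming enzyme, at 32.97 CPM in FR2_3, and FR3_4 was low in it too, at 34.1 CPM. FR2_3 was far above the other FR2 libraries in PGR (50.6 CPM) and in the receptor FGFR1 (41.2 CPM against 16.7 to 21.4 CPM). FR2_1 was the lowest FR2 library for DNAJB1 (49.8 CPM) and FR2_4 for C1QB (30.4 CPM). The causes of these single values were not tested.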

How the results depend on the processing

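Of 92 genes followed through 23 alternative settings 0 reversed. Many of them were named for their small p in the same fit, which makes a change of sign unlikely. TYMS, at 0.00, was among the 30 negative folds of the cell cycle list with upper-quartile factors. The median of lymphatic endothelial markers turned from 0.27 to -0.83 without FR3_4. Of the results followed, 13 lost a call, all of them GPCPD1, and 91 gained one. Genes called numbered 0 with RLE factors, upper-quartile factors, a mean CPM of at least 1, FR1 added to the fit, or a threshold of 0.01. They numbered 426 by DESeq2 (199 higher, 227 lower) and 951 by limma-voom with quality weights (385 higher, 566 lower). DESeq2 also called 1 epithelial marker, 1 sperm and testis marker, 1 hormone receptor and 1 adhesion gene, all higher (1.20% of all genes). It called 2 inflammatory mediators and 1 gene of matrix proteases and inhibitors, all lower (1.37%). Of the immediate early and heat shock genes it called 1 higher and 1 lower. Without FR2_3 and FR3_4 genes called by edgeR numbered 7 (5 higher, 2 lower), and without FR2_3, FR3_3 and FR3_4 they numbered 29 (23 higher, 6 lower). Both sets of left-out libraries were chosen with values of these data known. Leaving out 1 library gave 0 to 9 calls, 0 to 5 of them higher and 0 to 4 lower; all 9 came without FR3_4, and any other library left out gave 0. Genes whose groups did not overlap, 253 higher and 323 lower, numbered 51 and 876 with library totals alone, 1149 and 958 without FR2_3 and FR3_4, and 1659 and 1414 without FR2_3, FR3_3 and FR3_4. With 1 library left out they numbered 299 to 1049 higher and 390 to 821 lower; fewer libraries leave less chance of overlap by construction. The test between steps called 7 genes by DESeq2, 1 with all 20 libraries, 1 without FR1_1, FR1_4, FR2_3 and FR3_4, and 0 to 1 with 1 library left out. The difference in mean Spearman correlation ran from -0.0335 without FR2_3, where it passed 0.05, to -0.00327 without FR3_4. Where counts moved and no construction is named, the cause was not tested. The simulation recovered few 2-fold changes, so changes of that size could mostly have been missed. It drew each gene on its own, without the shifts across many genes seen in FR3_4, FR2_3 and FR3_3. Its shares at larger folds therefore may not hold for these libraries. No paired analysis was possible, because the sows of different groups share no replicate numbers and the boar used for each sow is not given.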

Other observations

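Growth factor and signalling lists had medians within 0.25 of 0 on the log2 scale, and 0 members of any were called by edgeR. These medians moved when FR3_4 was left out: that of angiogenic factors and receptors was then -0.54 (-0.14 with all libraries), that of Wnt, Notch and hedgehog genes -0.56 (-0.24), that of TGF-beta, activin and BMP genes -0.23 (-0.08), and that of insulin-like growth factors and the EGF family turned to -0.20 (0.12). Without both FR3_4 and FR2_3 they were -0.54, -0.49, -0.21 and -0.22. Members with the smallest p lay in both directions. FGFR2, an epithelial receptor for fibroblast growth factors, was at 95.1, 66.5, 35.2, 16.6 and 57.3 CPM in FR3, against 26.1, 29.9, 12.3, 22.7 and 23.3 CPM in FR2 (log2 1.24 ± 0.40, edgeR adjusted p = 0.288). FR3_4 was again the one FR3 library within the FR2 range. DKK3, a secreted protein of the Dickkopf family, was at 51.0 to 231 CPM in FR3 and 21.8 to 69.3 CPM in FR2 (log2 1.25 ± 0.41), while AXIN2, a feedback inhibitor of Wnt signalling, was at 25.5 to 50.6 CPM in FR3 and 39.2 to 70.3 CPM in FR2 (log2 -0.63 ± 0.21). THBS1, a matrix protein that restrains blood vessel growth, was at 9.69, 16.8, 15.5, 37.6 and 16.6 CPM in FR3, against 30.95, 43.8, 75.7, 29.4 and 42.5 CPM in FR2 (log2 -1.21 ± 0.36). There FR3_4 was the highest FR3 library and overlapped FR2. FST was at 4.23 to 13.3 CPM in FR3 and 7.83 to 14.0 CPM in FR2 (log2 -0.83 ± 0.33).

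Genes of secretion and transport also overlapped between the groups. DEFB1, an antimicrobial peptide of epithelia, was at 91.1, 34.3, 55.1, 16.6 and 163 CPM in FR3, against 13.2, 55.6, 1.29, 20.7 and 4.10 CPM in FR2 (log2 1.92 ± 0.87, edgeR adjusted p = 0.396). SLC2A1, a glucose transporter, was at 40.5 to 128 CPM in FR3 and 32.1 to 71.4 CPM in FR2 (log2 0.73 ± 0.32). PTGS1, the constitutive prostaglandin synthase, was at 1.29 to 4.53 CPM in FR3 and 1.31 to 17.4 CPM in FR2 (log2 -1.74 ± 0.65), and the prostaglandin receptor PTGER2 at 6.71 to 22.1 CPM in FR3 and 20.2 to 34.0 CPM in FR2 (log2 -0.77 ± 0.32). SPP1, a phosphoprotein secreted by uterine glands, was at 3.46 to 8.79 CPM in FR3 and 3.04 to 4.64 CPM in FR2, and the mucin MUC1 at 2.15 to 20.8 CPM in FR3 and 2.19 to 4.97 CPM in FR2. Sows that were not inseminated averaged 424 ± 610.0 CPM of SPP1 and 46.9 ± 36.0 CPM of MUC1 (SD, n = 5).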
